A study of Mus musculus with 2 samples.

Results

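Tnf and 9 genes of its receptors, feedback and targets were followed across the cells of the mouse fracture callus. The 10 genes were chosen by symbol: the ligand Tnf, the receptors Tnfrsf1a and Tnfrsf1b, the inhibitors Tnfaip3, Nfkbia and Nfkbiz, the adhesion molecules Icam1 and Vcam1, and Birc3 and Relb. They are 10 of the 32285 genes in the count matrices, and all 10 had UMIs (unique molecular identifiers, counted molecules) in both libraries. A list of 49 other genes of the same pathway was counted beside them. On GRCm38 (GENCODE M21, all protein-coding genes) Tnf lies at chr17:35199381-35202007, Tnfrsf1a at chr6:125349362-125362484, Tnfrsf1b at chr4:145213463-145246870, Tnfaip3 at chr10:19000910-19015657 and Nfkbia at chr12:55489410-55492647. Nfkbiz lies at chr16:55811375-55838899, Icam1 at chr9:21015985-21028817, Vcam1 at chr3:116109949-116129688, Birc3 at chr9:7848699-7873186 and Relb at chr7:19606217-19629438.

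The calluses came from 12-week-old male wild-type C57BL/6J mice with a femoral fracture, taken 10 days (5 mice) and 20 days (5 mice) after fracture. Cells were freed with enzymes and captured on a 10x Genomics droplet instrument, aiming at 5000 cells, and the data were deposited as 2 libraries, MGJ and MGJ2. The labels give neither library a day and do not say how many mice each library holds, so the libraries were placed in no group and are shown side by side. No test between days was made, and every interval below covers counting error only, since cells of 1 library are not replicates.

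TNF is secreted mainly by activated myeloid cells, and in a fracture it belongs to the early inflammatory signals of the callus. Binding to its receptors on the cell surface leads to the breakdown of I-kappaB proteins and lets NF-kappaB dimers enter the nucleus. NF-kappaB then switches on cytokines, adhesion molecules and survival genes, and also its own inhibitors, which bring the response to an end.

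Library MGJ held 14295 barcodes with 135304426 UMIs (median 5026 per barcode), and MGJ2 held 8009 barcodes with 61130834 UMIs (median 4952). The limits of at least 200 genes and at most 20% mitochondrial UMIs, and the removal of doublet calls, left 13320 and 7584 cells. Clusters were named "-like" from marker lists, and sets of at least 50 cells were used: 17 classes in MGJ and 13 in MGJ2. Only 19 barcodes were shared between the libraries. The skeletal and blood classes were unevenly split, with 2423 chondrocyte-like cells in MGJ and 132 in MGJ2. A further 4354 cells of MGJ (32.7%) and 356 of MGJ2 (4.69%) stayed unnamed. The largest unnamed cluster, led by Ccl3 and Ccl4, held 2101 cells of MGJ and 5 of MGJ2, and the next, led by Cstdc4 and Stfa2l1, held 1682 and 53. Neutrophil markers were their best list, with 4 of the 10 markers detected in the Ccl3-led and 6 in the Cstdc4-led cluster (in at least 10% of cells and above the mean over clusters), but their median UMI count was 0.316 of the library median, below the limit of 1 in 3 for a name, and no neutrophil marker was among their leading genes. Both are shown as sets of their own.

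Of the inhibitors, Nfkbia and Tnfaip3 carried a textbook NF-kappaB motif shortly before their start sites, and their promoters are shown for that reason. RefSeq promoters (GRCm38.p6, 250 bases before to 50 after the start) were found for 7 of the 10 genes, and the 10-base NF-kappaB decamer, searched on both strands, was present for Nfkbia and Tnfaip3. Among all 32851 promoters of that length 8.46% held a match. The Nfkbia promoter (chr12:55492598-55492897, minus strand) had 1 match, starting at −29, and the Tnfaip3 promoter (chr10:19015361-19015660, minus strand) had matches at −125 and −12. The capitals mark the matched stretches:
Nfkbia: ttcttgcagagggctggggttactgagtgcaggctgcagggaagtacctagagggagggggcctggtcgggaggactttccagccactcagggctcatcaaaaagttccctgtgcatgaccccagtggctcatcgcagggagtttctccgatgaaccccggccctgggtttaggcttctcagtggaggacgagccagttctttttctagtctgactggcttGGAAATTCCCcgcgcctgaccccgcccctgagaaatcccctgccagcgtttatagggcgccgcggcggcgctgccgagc
Tnfaip3: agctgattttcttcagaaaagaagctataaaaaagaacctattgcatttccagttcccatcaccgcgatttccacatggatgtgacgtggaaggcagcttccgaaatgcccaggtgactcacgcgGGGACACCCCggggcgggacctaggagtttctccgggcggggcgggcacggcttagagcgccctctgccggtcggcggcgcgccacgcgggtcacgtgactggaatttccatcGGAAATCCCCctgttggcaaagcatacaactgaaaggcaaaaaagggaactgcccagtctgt
A match describes these letters only. The entries for Tnf, Tnfrsf1a, Tnfrsf1b, Icam1 and Birc3 and a second entry for Tnfaip3 held no match in this window. The inhibitor Nfkbiz, Vcam1 and Relb had no promoter entry and were not searched.

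Tnf, the ligand, was highest in clusters that carried neutrophil genes. In MGJ the Ccl3-led cluster reached 3181 UMIs per 1000000 UMIs of the set (CPM, exact Poisson 95% interval 3126 to 3236), and it held 12884 of the 29072 Tnf UMIs of the library. Neutrophil-like cells followed at 669 CPM (648 to 690), then the Cstdc4-led cluster at 365 CPM, monocyte-like cells at 253 CPM and macrophage-like cells at 247 CPM. The place of the neutrophil-like cells rested on 412 cells of an Ifit1-led cluster, which held 3092 of their 3887 Tnf UMIs. The other 812 neutrophil-like cells were at 162 CPM (150.5 to 173), below monocyte-like and macrophage-like cells. Macrophage-like cells were uneven too. Their 900 C1qa-led cells were at 171 CPM (162 to 180), overlapping those 812 cells, and their 397 Arg1-led cells at 461 CPM (438 to 485). Of the other sets, only the B cell-like and erythroid-like ones lay at levels like those of monocyte-like cells, on few cells. The lowest level was in fibroblast-like cells, at 15.96 CPM (13.7 to 18.5), and the median over the 19 sets was 68.9 CPM.

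In MGJ2 the cells with neutrophil genes were again highest. Its 53 Cstdc4-led cells were at 629 CPM (485 to 801), its neutrophil-like cells at 225 CPM (216 to 234) and its monocyte-like cells at 99.9 CPM (94.6 to 105). No other set of MGJ2 passed 30 CPM, and chondrocyte-like cells were lowest at 1.78 CPM (0.717 to 3.67). The place of the neutrophil-like cells leaned on 1 cluster here too. Most of their Tnf UMIs, 2065, lay in 1449 cells of a Gm39321-led cluster at 644 CPM (616 to 672). Their Retnlg-led cells were at 128 CPM. Their Ltf-led and Camp-led cells, at 29.9 and 18.9 CPM, were below monocyte-like cells. Over all kept cells Tnf was at 221 CPM in MGJ and 81.2 CPM in MGJ2.

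Some high Tnf values rested on few cells. The B cell-like set of MGJ stood at 281 CPM with 48 UMIs, of which 41 lay in 1 cell, and the erythroid-like set stood at 211 CPM with 70 UMIs, of which 68 lay in 1 cell. These sets are therefore not read as Tnf-bearing. When each cell was thinned to 2000 UMIs, 78.3% of Ccl3-led cells (604 of 771; exact 95% interval 75.3 to 81.2) had a Tnf UMI. The share was 1 of 54 in erythroid-like cells, which should lack Tnf, or 1.85% (0.0469 to 9.89). Their median depths were 1788 and 2689 UMIs, and without thinning 4% of erythroid-like cells had a Tnf UMI. Neutrophil-like cells of MGJ2 had a thinned share of 30.3% (552 of 1824) and monocyte-like cells one of 12.7% (184 of 1450).

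**Figure D1:**
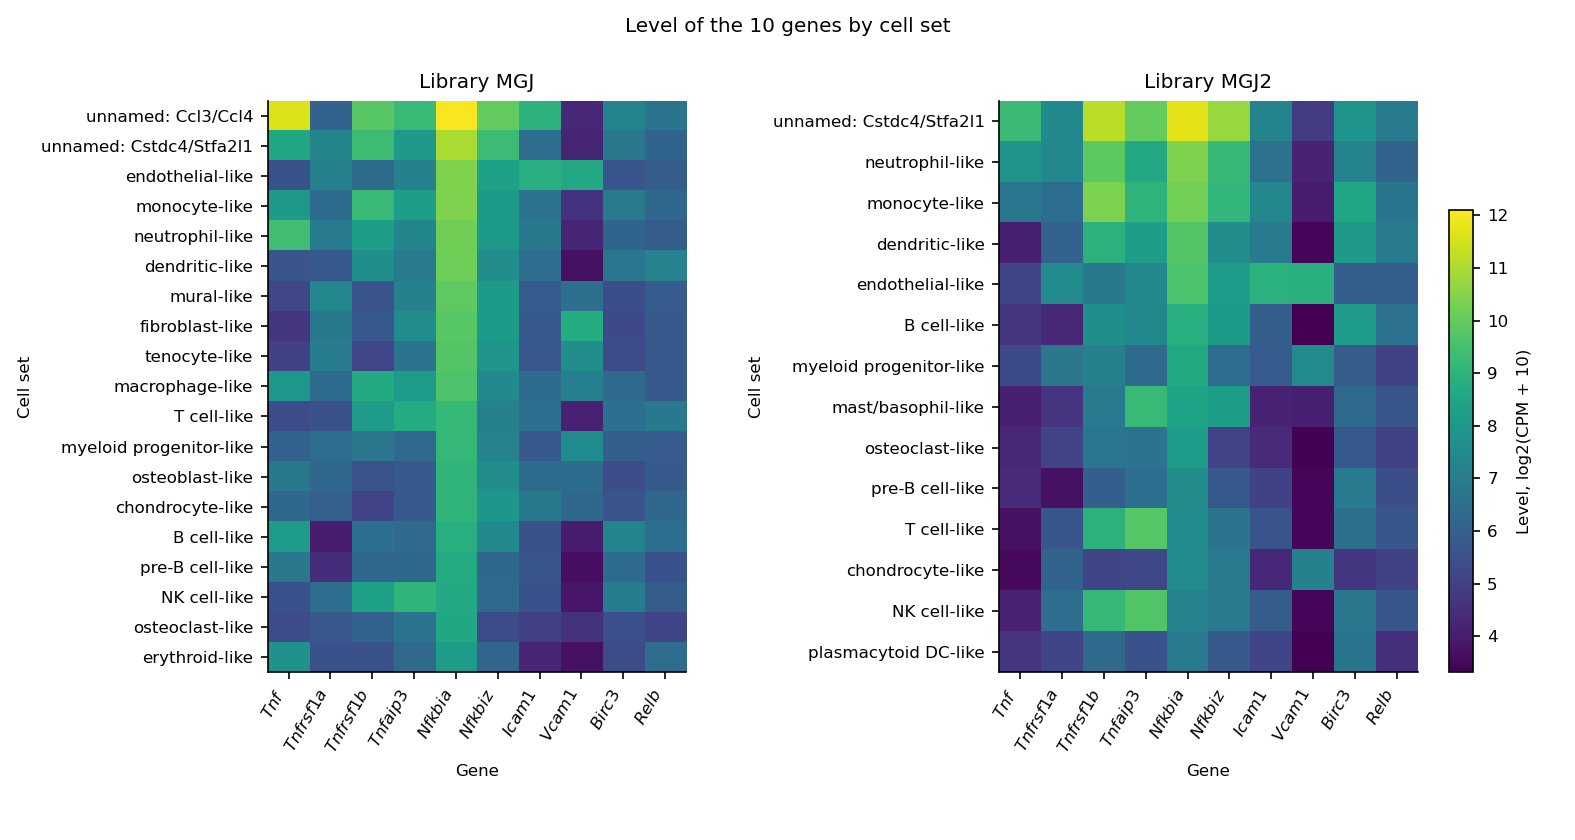
Heat map of the level of each of the 10 genes, as log2(CPM + 10), in the 19 cell sets of library MGJ and the 14 of MGJ2, with rows ordered by Nfkbia. The unnamed Ccl3-led cluster (MGJ) and Cstdc4-led cluster (MGJ2) are the top rows, and Vcam1 is over 300 CPM in fibroblast-like cells of MGJ and endothelial-like cells of both libraries.

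The receptors differed in how widely they were spread. Tnfrsf1a, which encodes the widely expressed death domain receptor TNFR1, was spread over most sets: in MGJ mural-like cells were highest at 156 CPM (136 to 179), the median was 73.1 CPM, and B cell-like cells were lowest at 5.85 CPM with 1 UMI. In MGJ2 endothelial-like cells were highest at 180 CPM (142 to 225), neutrophil-like cells had 160 CPM (153 to 168) and pre-B cell-like cells were lowest at 3.25 CPM. In MGJ 17 of the 18 neighbours in the order had overlapping intervals, so the order of its upper sets cannot be read.

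Tnfrsf1b, which encodes TNFR2, the receptor of leukocytes, was a gene of blood cells in both libraries. In MGJ it went from 892 CPM (864 to 922) in the Ccl3-led cluster through 587 CPM in monocyte-like and 402 CPM in macrophage-like cells to 24.2 CPM in chondrocyte-like cells. In MGJ2 the Cstdc4-led cluster had 2302 CPM (2019 to 2614), monocyte-like cells 1309 CPM (1290 to 1329), neutrophil-like cells 946 CPM and chondrocyte-like cells 25.5 CPM. NK cell-like and T cell-like cells came next among the named classes, at 568 and 494 CPM in MGJ2. The lowest class was the same in both libraries, while the whole-library level was 152 CPM in MGJ and 655 CPM in MGJ2.

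Among the inhibitors, Tnfaip3, whose protein removes ubiquitin chains from the receptor complex and whose promoter is printed above, stood out in lymphocytes as well as in myeloid sets. In MGJ2 T cell-like cells were at 882 CPM (854 to 911), NK cell-like cells at 824 CPM (792 to 857) and mast and basophil-like cells at 607 CPM (555 to 662), below only the 53 Cstdc4-led cells at 1025 CPM (839 to 1240). At 2000 UMIs per cell, 76.8% of T cell-like cells (586 of 763) and 77.7% of NK cell-like cells (504 of 649) of MGJ2 had a Tnfaip3 UMI, beside 7.41% of erythroid-like cells of MGJ (4 of 54). In MGJ the order was the Ccl3-led cluster at 587 CPM, NK cell-like cells at 528 CPM (436 to 632) and T cell-like cells at 410 CPM (366 to 457). Tnf itself was at 31.7 CPM in the T cell-like cells of MGJ and 3.06 CPM in those of MGJ2, so a high Tnfaip3 level was found there without a high Tnf level. Osteoblast-like (45.4 CPM) and chondrocyte-like cells (46.5 CPM) were lowest in MGJ, with overlapping intervals, and chondrocyte-like cells (27.8 CPM) in MGJ2.

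Nfkbia encodes I-kappaB alpha, the protein that holds NF-kappaB in the cytoplasm and is remade when NF-kappaB acts. It was over 100 CPM in all 19 sets of MGJ and all 14 of MGJ2. Its highest levels were 4153 CPM (4090 to 4216) in the Ccl3-led cluster of MGJ and 3443 CPM (3095 to 3820) in the Cstdc4-led cluster of MGJ2. Endothelial-like (1347 CPM) and monocyte-like cells (1332 CPM) headed the named classes of MGJ with overlapping intervals, and neutrophil-like cells (1328 CPM) and monocyte-like cells (1186 CPM) those of MGJ2. The lowest sets were erythroid-like cells at 280 CPM in MGJ and plasmacytoid dendritic-like cells at 114 CPM in MGJ2.

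Nfkbiz encodes I-kappaB zeta, a nuclear partner of NF-kappaB at secondary targets. It followed Nfkbia at the top, with 1014 CPM (983 to 1046) in the Ccl3-led cluster of MGJ and 1693 CPM (1451 to 1963) in the Cstdc4-led cluster of MGJ2. Osteoclast-like cells were lowest in both libraries, at 31.2 CPM (24.7 to 39.0) and 24.2 CPM (18.1 to 31.8). In MGJ the skeletal classes were not low for this gene: chondrocyte-like cells had 233 CPM and fibroblast-like cells 265 CPM, beside 265 CPM in neutrophil-like cells.

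The adhesion molecules were high in vessel cells. Icam1, which binds leukocyte integrins, was highest in endothelial-like cells in MGJ2 at 480 CPM (417 to 550) and stood at 446 CPM (421 to 471) in those of MGJ, second to the Ccl3-led cluster at 485 CPM (464 to 507). In MGJ 36.3% of endothelial-like cells thinned to 2000 UMIs (78 of 215) had an Icam1 UMI, beside 3.70% of erythroid-like cells (2 of 54), at median depths of 5995 and 2689 UMIs and unthinned shares of 53.4% and 4%. No other named class of MGJ passed 106 CPM, while MGJ2 had 161 CPM in monocyte-like and 117 CPM in dendritic-like cells. Chondrocyte-like cells differed widely between the libraries, with 106 CPM (103 to 109) in MGJ and 9.68 CPM (6.85 to 13.3) in MGJ2.

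Vcam1, which binds integrins of lymphocytes and monocytes, was near 0 in many sets, with a median over sets of 14.3 CPM in MGJ and 3.71 CPM in MGJ2. In MGJ fibroblast-like cells had 423 CPM (411 to 435), endothelial-like cells 379 CPM (356 to 402), tenocyte-like cells 193 CPM and myeloid progenitor-like cells 182 CPM. In MGJ2 endothelial-like cells had 464 CPM (402 to 533), myeloid progenitor-like cells 184 CPM (172 to 197) and chondrocyte-like cells 136 CPM. Macrophage-like cells of MGJ had 128 CPM (122 to 135), whereas monocyte-like cells had 14.3 CPM in MGJ and 6.33 CPM in MGJ2. Within the macrophage-like cells, the C1qa-led cluster had 170 CPM (162 to 179) and the Arg1-led one 9.37 CPM (6.32 to 13.4). In MGJ2 no UMI was counted in B cell-like or plasmacytoid dendritic-like cells, where 3 counts, the floor taken for a count of 0, would be 1.52 and 6.34 CPM.

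**Figure D2:**
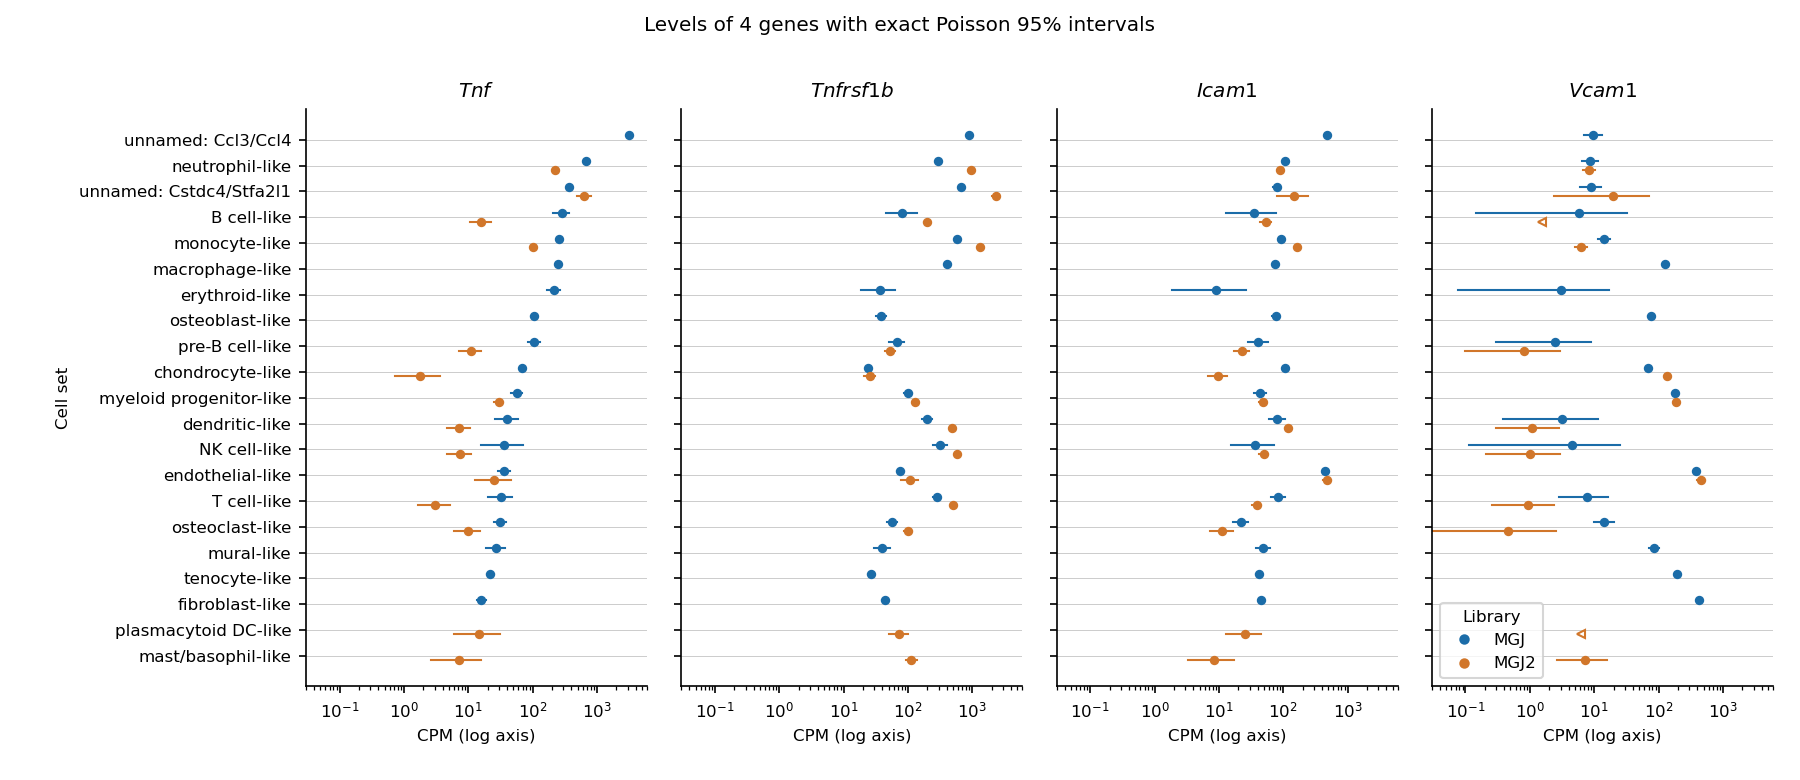
Levels in CPM (log axis) of Tnf, Tnfrsf1b, Icam1 and Vcam1 by cell set in library MGJ (blue) and MGJ2 (orange), with exact Poisson 95% intervals as lines; intervals reaching below the axis are cut at its left end, and open triangles mark the level that a count of 0 allows. Tnf and Tnfrsf1b are high in myeloid sets, Icam1 peaks in endothelial-like cells and the Ccl3-led cluster, and Vcam1 lies over 300 CPM in endothelial-like cells of both libraries and fibroblast-like cells of MGJ.

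Birc3 and Relb belong to the survival and non-canonical arm: Birc3 encodes a ubiquitin ligase of the receptor complex that protects from cell death, and Relb encodes the NF-kappaB subunit of the non-canonical pathway. Birc3 had the narrowest span in MGJ, from 27.9 CPM in fibroblast-like cells to 146 CPM (94.6 to 216) in B cell-like cells, with 17 of 18 neighbours overlapping. In MGJ2 monocyte-like cells were highest at 344 CPM (334 to 354), ahead of B cell-like cells at 274 CPM and dendritic-like cells at 252 CPM, and chondrocyte-like cells were lowest at 16.1 CPM. Relb was highest in dendritic-like cells of MGJ at 140 CPM (112 to 172), and all 18 neighbours in its order overlapped. In MGJ2 the Cstdc4-led cluster (116 CPM, 59.97 to 203), dendritic-like cells (110 CPM, 99.2 to 121) and monocyte-like cells (97.3 CPM, 92.1 to 103) led, with overlapping intervals.

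Among the clusters that scored highest for neutrophil markers, levels of Tnf and Icam1 differed widely from cluster to cluster. The 10 genes and the pathway list took no part in the clustering. Tnf was still among the leading genes of the Ccl3-led cluster, and so were Ccrl2 and Il1a, the genes closest to it in pattern. Levels and ratios of these clusters are therefore not independent of how the clusters formed. Neutrophils fill their granules with proteins such as Camp and Ltf while they mature in the marrow. Only the Camp- and Ltf-led clusters were placed by those genes. The order of the other clusters was set after the values were seen and follows rising Tnf in MGJ, so it is not read as a series of maturation. Tnf in MGJ was 44.5 CPM (35.1 to 55.7) in the Camp-led cluster, 92.4 CPM in the Ltf-led, 275 CPM (249 to 304) in the Retnlg-led, 1211 CPM (1036 to 1406) in the Gm39321-led (80 cells), 3181 CPM in the Ccl3-led and 3482 CPM (3360 to 3607) in the Ifit1-led cluster. In MGJ2 it was 18.9, 29.9, 128 and 644 CPM (616 to 672) in the Camp-, Ltf-, Retnlg- and Gm39321-led clusters, with the Camp- and Ltf-led intervals overlapping.

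In CPM, Icam1 followed a similar order. In MGJ it went from 11.7 CPM in the Camp-led and 14.1 CPM in the Ltf-led cluster to 38.9 CPM in the Retnlg-led, 232 CPM in the Gm39321-led, 485 CPM in the Ccl3-led and 544 CPM (496 to 595) in the Ifit1-led cluster. MGJ2 had 5.18, 7.68, 32.6 and 272 CPM (254 to 290) in the Camp-, Ltf-, Retnlg- and Gm39321-led clusters. The granule-rich clusters were thus lowest in Icam1 by CPM in both libraries. Nfkbia was level between the Camp- and Ltf-led clusters (443 and 434 CPM in MGJ, 291 and 298 CPM in MGJ2) and then rose to 824 and 1280 CPM in the Retnlg-led clusters. It reached 4153 CPM in the Ccl3-led cluster of MGJ and 3240 CPM in the Gm39321-led cluster of MGJ2.

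Ratios over the Retnlg-led cluster, which was chosen as the reference after the values were seen, were taken within each library. A gene was counted as higher or lower when its CPM differed at least 2-fold, and it entered with at least 20 UMIs in both sets together. In the Ccl3-led cluster of MGJ 9 of 10 genes were at least 2-fold higher, where 36.9% of all 6630 genes tested were, and the median ratio was 4.25 beside 1.53 over all genes. Tnf was 11.6-fold (10.4 to 12.8) and Icam1 12.46-fold (9.55 to 16.6) higher, while the receptor Tnfrsf1a went the other way at a ratio of 0.426 (0.351 to 0.519). In the Ifit1-led cluster 8 of 9 genes tested were higher, beside 32.1% of all genes. In the Gm39321-led cluster 8 of 9 were higher in MGJ, beside 32.4%, and 7 of 10 in MGJ2, beside 27.3%. In that MGJ2 cluster Tnf was 5.01-fold (4.38 to 5.76) and Icam1 8.32-fold (6.40 to 11.0) higher, and Tnfrsf1a was at 0.731 (0.639 to 0.836). The rise was not limited to the clusters highest in Tnf. In the Cstdc4-led cluster of MGJ 7 of 10 genes were higher, among them Nfkbiz (3.36), Tnfaip3 (2.69) and Nfkbia (2.46). Tnf (1.33, 1.18 to 1.49), Tnfrsf1a (1.1) and Birc3 (1.68) stayed under 2-fold there. In the 53 Cstdc4-led cells of MGJ2 7 of 9 genes tested were higher, with Tnf at 4.896 (3.66 to 6.47). The median ratio there was 2.69 beside 1.18 over all genes.

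Total UMIs and neutrophil marker levels also differed between these clusters, and both were mostly lower where Tnf was higher. The median UMI count in MGJ was 11698 in the Camp-led, 6049 in the Ltf-led, 3843 in the Retnlg-led, 1485 in the Gm39321-led, 1788 in the Ccl3-led and 1892 in the Ifit1-led cluster. The Cstdc4-led cluster had a median of 1776 UMIs, close to that of the Ccl3-led one, with Tnf at 365 against 3181 CPM. Its Nfkbia level was 2027 against 4153 CPM, beside 824 CPM in the Retnlg-led cluster. Tnf was also higher as plain UMIs per cell, at 6.13 in the Ccl3-led and 7.50 in the Ifit1-led cluster against 1.16 in the Retnlg-led and 0.559 in the Camp-led cluster of MGJ. The Cstdc4-led cluster, at 0.736, was below the Retnlg-led one. Icam1 per cell differed little between the Camp- and Retnlg-led clusters (0.147 and 0.163 in MGJ, 0.105 and 0.1345 in MGJ2). Nfkbia per cell was higher in the Camp-led than in the Retnlg-led cluster (5.57 against 3.455 in MGJ, 5.90 against 5.27 in MGJ2). In the Ccl3-led cluster Icam1 was at 0.935 and Nfkbia at 8.01 UMIs per cell. The 10 neutrophil markers summed to 390950 CPM in the Camp-led, 426542 CPM in the Ltf-led, 349036 CPM in the Retnlg-led, 152172 CPM in the Cstdc4-led, 69801 CPM in the Gm39321-led, 77007 CPM in the Ccl3-led and 59183 CPM in the Ifit1-led cluster, and none of them was at 0 in any of these clusters. The part of depth and of the markers in these differences was not tested.

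**Figure D3:**
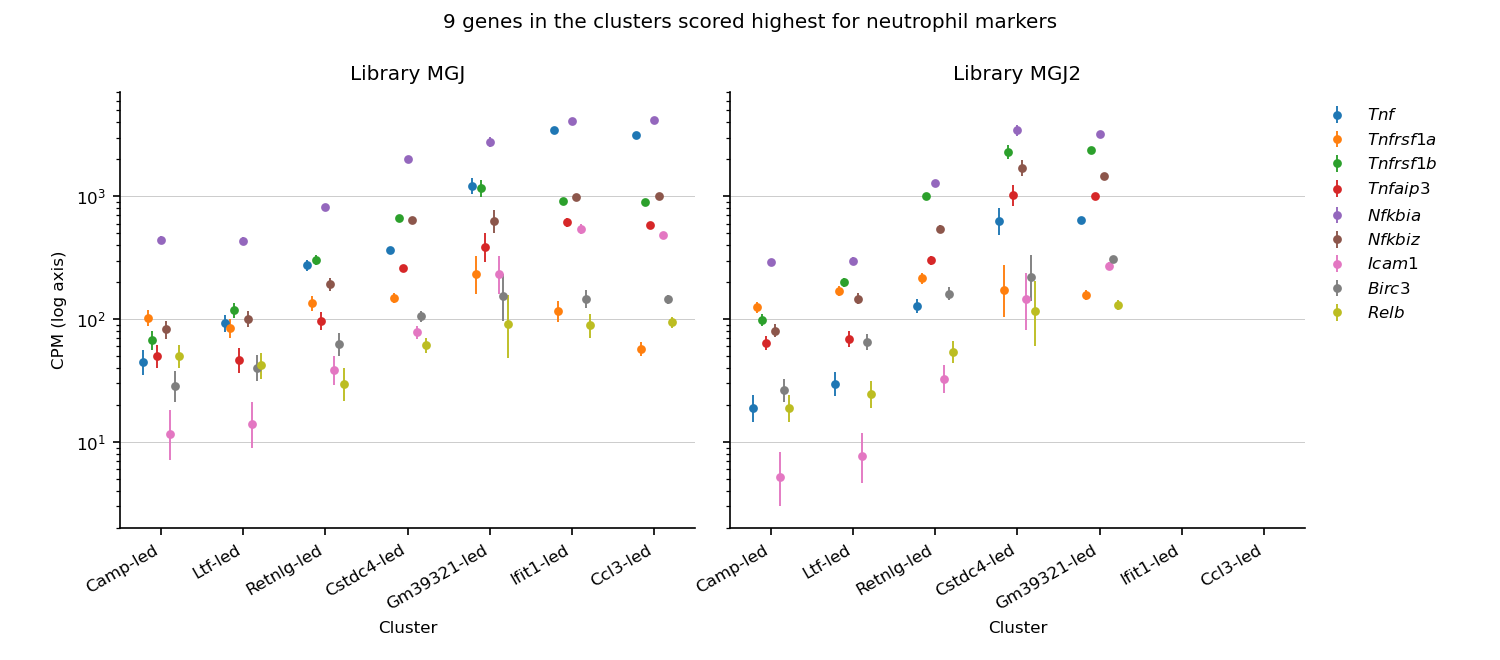
Levels in CPM (log axis) of 9 genes (all but Vcam1) in the clusters scored highest for neutrophil markers, named by their leading gene, in library MGJ (left) and MGJ2 (right), with exact Poisson 95% intervals; a cluster with fewer than 50 cells in a library is left out. The order of clusters was set after the values were seen. Tnf lies between 44.5 CPM in the Camp-led and 3482 CPM in the Ifit1-led cluster of MGJ, while Tnfrsf1a stays between 57.5 and 232 CPM.

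The same genes were compared between cells with and without a Tnf UMI, with each cell first thinned to 2000 UMIs. In neutrophil-like cells of MGJ (227 with, 671 without, 326 shallower cells left out) 6 of 8 genes tested were at least 2-fold higher in the cells with Tnf, beside 17.7% of all genes, and the median ratio was 4.37. Icam1 was at 421 against 20.9 CPM, a ratio of 20.2 (13.5 to 31.1), Nfkbia at 3544 against 625 CPM (5.67, 5.21 to 6.17), and Tnfrsf1a at 90.3 against 131 CPM (0.689, 0.478 to 0.972). Of the 227 cells, 144 belonged to the Ifit1-led cluster, so the contrast is partly one between clusters. In neutrophil-like cells of MGJ2 (552 with, 1272 without, 573 left out) 6 of 8 genes were again higher, beside 5.47% of all genes, with a median ratio of 2.65, and 450 of the 552 belonged to the Gm39321-led cluster.

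The same contrast was then made within single clusters. In the Gm39321-led cluster of MGJ2 (447 with, 465 without, 537 left out) 1 of 8 genes was past 2-fold, beside 2.12% of all genes: Icam1 at 408 against 133 CPM, a ratio of 3.06 (2.49 to 3.78). Nfkbiz, at 1.95 (1.80 to 2.11), Tnfaip3, at 1.92 (1.75 to 2.12), and Nfkbia, at 1.79 (1.70 to 1.89), stayed under 2-fold with intervals above 1. Tnfrsf1a was at 1.003 (0.787 to 1.28). In the Ccl3-led cluster of MGJ (604 with, 167 without, 1330 left out) 1 of 8 was past 2-fold, beside 6.83% of all genes, again Icam1 at 2.05 (1.62 to 2.62). The 3 inhibitors were between 1.67 and 1.73 there. In the Cstdc4-led cluster of MGJ (216 with, 424 without, 1042 left out) Icam1 was at 3.43 (2.12 to 5.68), and the median ratio was 1.44 beside 1.04 over all genes. The Retnlg-led cluster of MGJ2 (76 with, 344 without, 26 left out) differed: Nfkbiz was past 2-fold (2.28, 1.88 to 2.76) and Icam1 was at 1.94 (0.782 to 4.42). Its median ratio was 1.74 beside 0.991 over all genes. The Ifit1-led cluster of MGJ left under 50 cells without Tnf at 2000 UMIs and was thinned to 1000 UMIs (222 with, 168 without). There 5 of 8 genes were past 2-fold, beside 6.7% of all genes: Birc3 (2.68, 1.42 to 5.40), Tnfaip3 (2.51, 1.84 to 3.48), Icam1 (2.37, 1.73 to 3.28), Nfkbia (2.23, 1.99 to 2.50) and Nfkbiz (2.11, 1.67 to 2.70). In monocyte-like cells Nfkbiz (2.002, 1.66 to 2.41) was past 2-fold in MGJ and Tnfaip3 (2.31, 2.05 to 2.61) in MGJ2, and in macrophage-like cells of MGJ Nfkbiz was (2.77, 2.31 to 3.33). The median ratios were 1.71 beside 0.968 over all genes, 1.30 beside 0.954, and 1.31 beside 0.953.

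**Figure D4:**
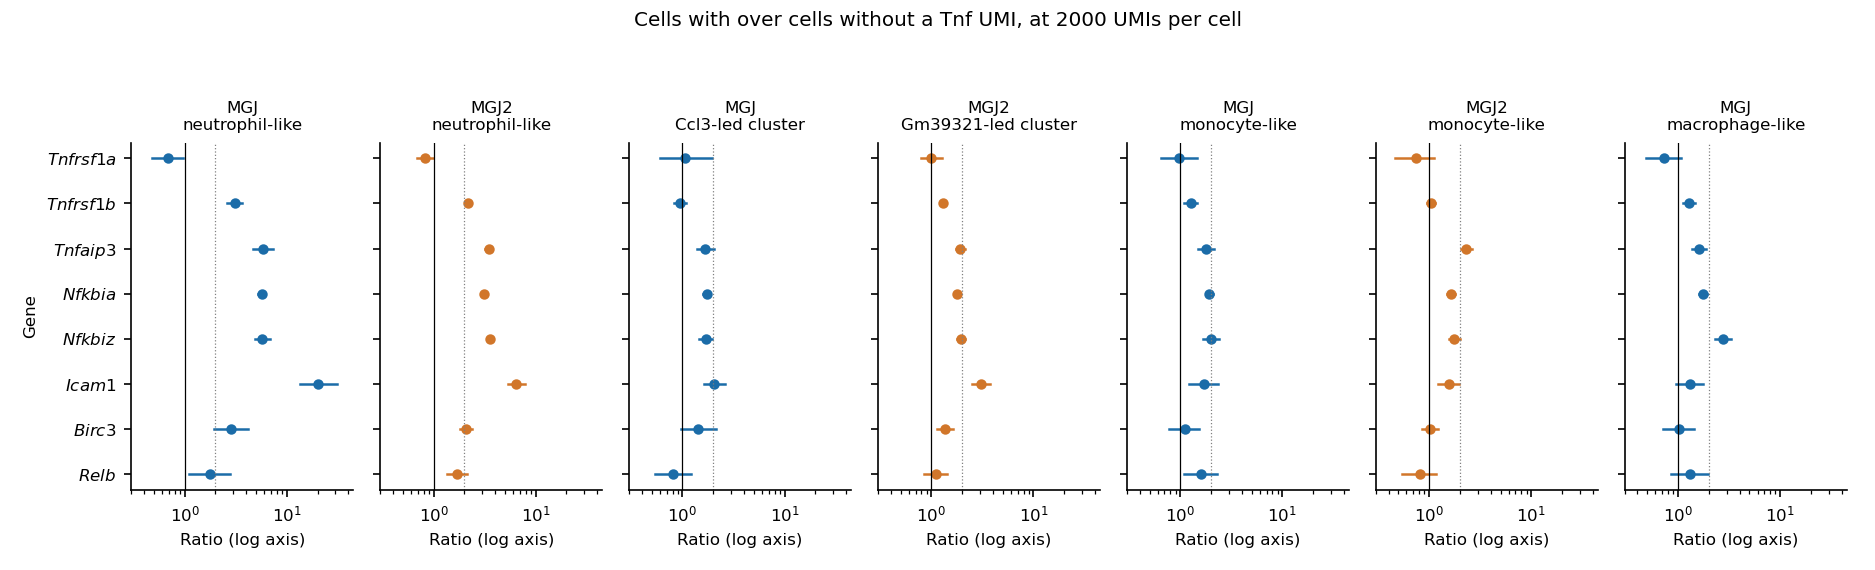
Ratio (log axis) of CPM in cells with over cells without a Tnf UMI, each cell thinned to 2000 UMIs, for 8 of the genes (all but Tnf and Vcam1), with exact 95% counting intervals, in library MGJ (blue) and MGJ2 (orange); the dotted line marks 2-fold. Icam1 and the 3 inhibitors lie to the right and Tnfrsf1a at or left of 1 in both neutrophil-like sets, and within the Ccl3-led and Gm39321-led clusters Icam1 alone is past 2-fold.

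Neutrophil-like cells were set against the union of monocyte-like and macrophage-like cells to ask which phagocyte class carried the response. That union held 1297 macrophage-like cells in MGJ but only 27 in MGJ2, beside 1467 monocyte-like cells there, so the libraries compare unlike sets. In MGJ (1224 against 2224 cells) 1 of 10 genes was at least 2-fold higher, beside 10.2% of all genes, and 1 was lower, beside 48.6%. The higher gene was Tnf, at 669 against 249 CPM (2.69, 2.58 to 2.81), and the lower gene was Vcam1, at 8.61 against 91.7 CPM (0.0938, 0.0693 to 0.124). The Tnf ratio rested on 1 cluster: without the 412 Ifit1-led cells, whose median UMI count was just above the limit for a name, it was 0.650, and with the low-UMI clusters named it was 5.47. In MGJ2 (2397 against 1494 cells) 2 genes were higher, beside 17.9%, and 1 lower, beside 34.5%. These were Tnf, at 225 against 101 CPM (2.21, 2.07 to 2.37), Tnfrsf1a, at 160 against 79.8 CPM (2.01, 1.86 to 2.16), and Birc3, at 142 against 339 CPM (0.418, 0.395 to 0.443). The Tnfrsf1a value lay at the threshold, and it passed in 8 of 15 alternative settings. The Tnf ratio of MGJ2 leaned on 1 cluster too. Its 1449 Gm39321-led cells held 2065 Tnf UMIs, beside 236, 78 and 62 in the Retnlg-, Ltf- and Camp-led cells.

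Of the 49 other pathway genes 3 were higher and 22 lower of 48 tested in MGJ, and 5 higher and 25 lower of 48 in MGJ2, with median ratios of 0.544 and 0.485 beside 0.515 and 0.717 over all genes. The shares of all genes were 10.2% higher and 48.6% lower in MGJ, and 17.9% and 34.5% in MGJ2. The cytokine genes Ltb (12.4-fold, 8.72 to 18.2, in MGJ and 58.8-fold, 36.5 to 101, in MGJ2) and Tnfsf13b (5.06-fold and 6.43-fold) had the highest ratios. Tnip3 (0.0317) and Traf5 (0.0377) were lowest in MGJ, and the antigen-presenting cell genes Cd83 (0.0149) and Cd40 (0.0215) in MGJ2.

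The skeletal stromal classes together were chondrocyte-, osteoblast-, fibroblast-, tenocyte- and marrow stromal-like cells (1 of the last in MGJ and 19 in MGJ2). Their make-up differed between the libraries: MGJ held 608 fibroblast-like and 679 tenocyte-like cells, and MGJ2 held 0 and 5. They were compared with the leukocyte classes, which leave out osteoclast- and erythroid-like cells. The unnamed clusters, among them the Ccl3-led and Cstdc4-led ones, are left out too. In MGJ (4092 against 4256 cells) none of the 10 genes was higher, beside 34.7% of all genes, and 4 were lower, beside 20%. Tnfrsf1b was lowest at 27.9 against 375 CPM (0.0744, 0.0710 to 0.0779), followed by Tnf at 55.9 against 304 CPM (0.184), Tnfaip3 at 73.2 against 233 CPM (0.314) and Birc3 at 35.9 against 78.5 CPM (0.458). Nfkbiz (1.16), Icam1 (1.06) and Relb (1.10) were near evenly split between these sets of named cells. Over 15 alternative settings their ratios ran from 0.702 to 1.35, from 0.637 to 1.38 and from 0.955 to 1.18. In MGJ2 (202 against 6903 cells) 8 genes were lower, beside 27.5% of all genes, and Vcam1 alone was higher, beside 24.7%, at 163 against 26.3 CPM (6.21, 5.66 to 6.80), or 4.80 without the marrow stromal-like cells. Icam1 was among the 8 there, at 11.1 against 93.8 CPM (0.118, 0.0880 to 0.155).

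In the pathway list 1 of 49 genes was higher in MGJ, beside 34.7% of all genes, and 27 were lower, beside 20%. In MGJ2 2 were higher, beside 24.7%, and 33 lower, beside 27.5%. Tnfrsf12a, the receptor of the TNF family cytokine TWEAK, was highest in both, at 7.81-fold (7.35 to 8.30) and 12.8-fold (11.7 to 14.1). Next was Tab1 in MGJ (1.25) and Tnip2 in MGJ2 (2.61), and the lowest were Tnip3 (0.0258) and Nfkbid (0.0389) in MGJ and Cd40 (0.0135) and Tnfsf14 (0.0141) in MGJ2.

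Endothelial-like cells were set against the same skeletal stromal union, whose make-up differed between the libraries. In MGJ (279 against 4092 cells) 4 of 10 genes were higher, beside 29.5% of all genes, and none was lower, beside 14.2%. Icam1 was 5.17-fold higher (446 against 86.2 CPM, 4.86 to 5.49), Vcam1 2.76-fold (379 against 137 CPM), Tnfrsf1b 2.73-fold (76.3 against 27.9 CPM) and Nfkbia 2.15-fold (1347 against 627 CPM). Neutrophil markers summed to 6606 CPM in these endothelial-like cells, more than in the other non-myeloid classes of MGJ, and to 392 CPM in those of MGJ2, and their part in the ratios was not tested. In MGJ2 (50 against 202 cells) all 10 genes were higher, beside 27.4% of all genes, and none was lower, beside 14.7%. Icam1 was at 480 against 11.1 CPM there, a ratio of 43.4 (31.88 to 59.99).

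With so few cells the MGJ2 values leaned on single cells. Of the 11 Tnf UMIs in the 50 endothelial-like cells 10 lay in 1 cell, and 3 cells held 110 of the 208 Icam1 UMIs. When every cell counted equally, Tnf and Tnfrsf1b turned to 0.429 and 0.568 and 5 genes passed 2-fold, and Icam1 was at least 12.9-fold higher in the 13 alternatives that gave a value. Of the pathway genes 14 of 48 were higher in MGJ, near the share of 29.5% of all genes, and 2 lower, beside 14.2%. In MGJ2 20 of 40 were higher, beside 27.4%, and 2 lower, beside 14.7%. Traf5 (14.7-fold) and Cd40 (9.12-fold) led in MGJ and Cd83 (17.2-fold) and Ikbkb (6.03-fold) in MGJ2. Zc3h12a, an RNase that degrades inflammatory transcripts, was lowest in both (0.466 and 0.362), beside Tnfsf13b (0.470) in MGJ and Tnip2 (0.434) in MGJ2.

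Dendritic-like cells were compared with monocyte-like and macrophage-like cells, since the non-canonical pathway is known for its role in dendritic cells. In MGJ2 that union was again nearly all monocyte-like cells. In MGJ (83 against 2224 cells) Relb was the only gene of the 10 that was higher, beside 18.2% of all genes, at 140 against 53.8 CPM (2.60, 2.06 to 3.24). Another 4 genes were lower, beside 16% of all genes: Vcam1 (0.0350), Tnf (0.162, 0.105 to 0.239), Tnfaip3 (0.410) and Tnfrsf1b (0.432). When each cell was named singly from its markers, Tnf stood at 1.01. In MGJ2 (343 against 1494 cells) none was higher, beside 11.6%, and Relb stood at 110 against 96.2 CPM (1.14, 1.02 to 1.28). The 4 lower genes, beside 14%, were Tnf at 7.11 against 101 CPM (0.0700, 0.0456 to 0.103), Vcam1 (0.0736), Nfkbiz (0.343) and Tnfrsf1b (0.379).

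Among the pathway genes 13 of 48 were higher in MGJ, beside 18.2% of all genes, and 9 lower, beside 16%. In MGJ2 6 were higher, beside 11.6%, and 6 lower, beside 14%. The kinase gene Map3k14, which encodes NIK, the entry to the non-canonical pathway, had the highest ratio in both libraries, at 28.5 (22.7 to 35.8) and 8.80 (7.99 to 9.71). Birc2, a ligase of the same complex, came next at 9.46 and 2.93. Sod2, a mitochondrial antioxidant enzyme, was lowest at 0.149 and 0.106, followed by Tnfsf14 (0.252) in MGJ and Ier3 (0.251) in MGJ2.

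Hypertrophic-like chondrocytes, a sub-cluster led by Pank1 and Col10a1, were set against the remaining chondrocyte-like sub-clusters. In MGJ (448 against 1975 cells) Vcam1 was the only gene of 10 past 2-fold, at 121 against 56.8 CPM (2.13, 1.98 to 2.29), beside 9.82% of all genes higher and 13.4% lower. It turned to 0.684 with at most 10% mitochondrial UMIs and to 0.553 at cluster resolution 0.5. In MGJ2 (63 against 69 cells) 5 of 9 genes tested were higher, beside 9.7% of all genes, and none was lower, beside 11.8%. Vcam1 was again the largest, at 260 against 35.5 CPM (7.34, 5.75 to 9.47), then Tnfaip3 (3.58, 2.30 to 5.71), Birc3 (2.15), Icam1 (2.12, 1.05 to 4.43, and 0.773 when every cell counted equally) and Relb (2.10). Of the pathway genes 2 of 47 were higher and 2 lower in MGJ, with Cd83 (3.46) and Map3k14 (2.55) highest and Ier3 (0.359) and Tnfsf13b (0.409) lowest. In MGJ2 6 of 36 were higher and 1 lower, with Traf1 (4.12) and Bcl3 (3.09) highest and Tradd (0.371) and Ltbr (0.519) lowest.

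**Figure D5:**
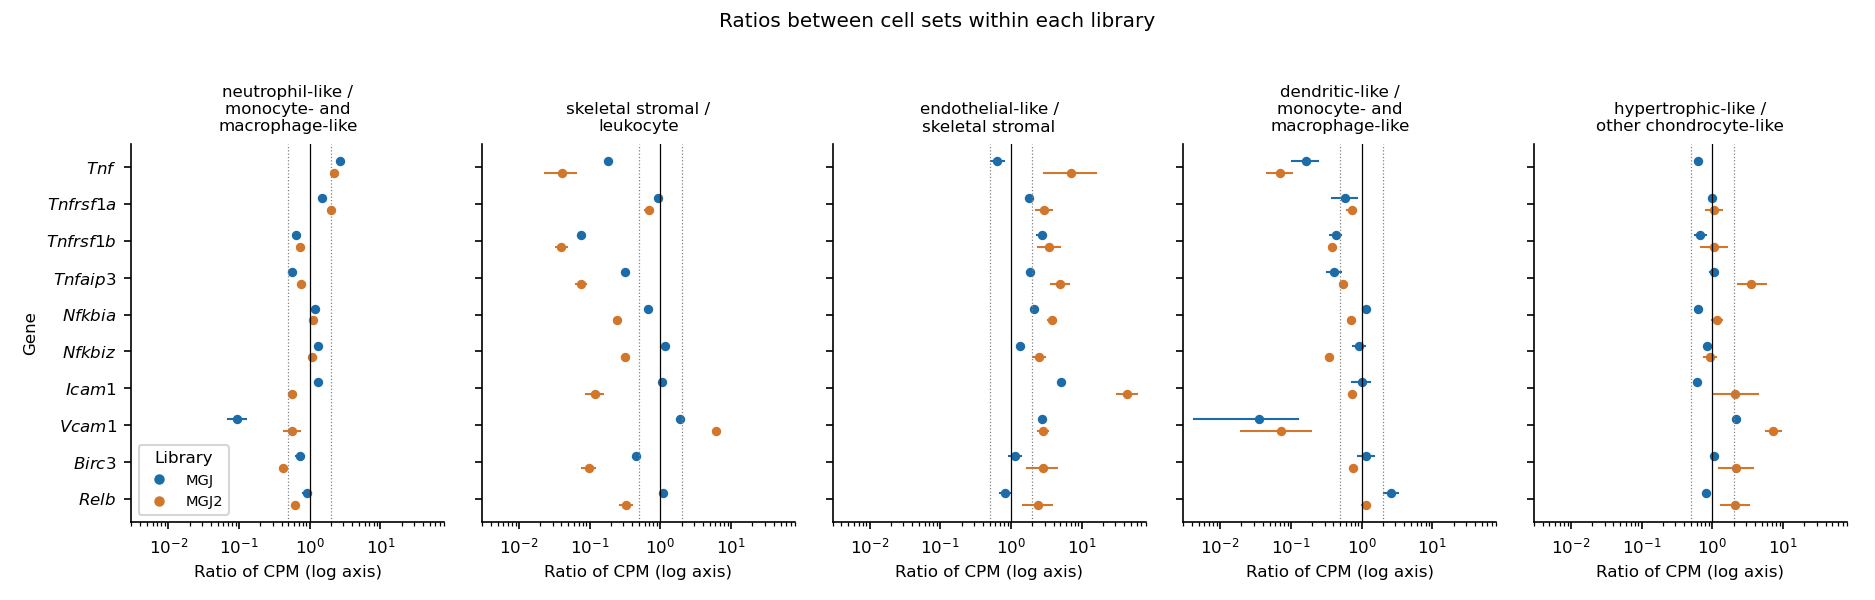
Ratio of CPM (log axis) for the 10 genes in the 5 comparisons, within library MGJ (blue) and MGJ2 (orange), with exact 95% counting intervals; dotted lines mark 2-fold. Vcam1 and Icam1 lie to the right in endothelial-like cells of both libraries, and Tnfrsf1b lies farthest left of the stromal panel.

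Inside the chondrocyte-like class of MGJ the levels were uneven. A sub-cluster of 120 cells led by Hp, Chil1 and Lcn2, acute-phase genes, had high levels of several of the genes: Icam1 384 CPM (361 to 407), Tnf 187 CPM (171 to 203), Relb 102 CPM (90.1 to 114), Tnfaip3 96.2 CPM, Birc3 71.4 CPM, Tnfrsf1b 59.6 CPM, Nfkbia 738 CPM and Nfkbiz 332 CPM. Cxcl10, Il6, Ccl2 and Nos2 were also among its leading genes, so these levels are not independent of how it formed. Its Tnfrsf1a (53.1 CPM) and Vcam1 (64.6 CPM) lay within the range of the other sub-clusters. Some of its high levels were close to those of others: Nfkbia was at 674 CPM in the Espn-led and 658 CPM in the Ube2c-led sub-cluster, and Relb at 92.8 CPM in the latter. The sub-cluster led by Smim5 and Slc40a1 (232 cells) was lowest for Tnf at 5.50 CPM (3.31 to 8.58) and for Icam1 at 12.7 CPM (9.25 to 17.1). Neutrophil markers summed to 321 and 329 CPM in the Hp-led and Smim5-led sub-clusters, a similar level, against 14687 CPM in a sub-cluster led by neutrophil genes that was set aside.

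The 10 genes did not form 1 pattern. Over the 33 library-by-set points, which share libraries and depth, log2(CPM + 10) values of Nfkbia and Nfkbiz had a Pearson r of 0.84 (0.91 within MGJ and 0.86 within MGJ2), and those of Tnfrsf1b and Tnfaip3 one of 0.82 (0.81 and 0.83). Vcam1 and Birc3 lay at −0.60 (−0.61 and −0.54). Among 11288 genes with at least 500 UMIs, the closest to Tnf were Ccrl2 (0.91), Il1a (0.88) and Il1rn (0.85). Closest to Tnfrsf1a were Sntb2 (0.74), S100a6 and Pdlim7 (both 0.73), to Tnfrsf1b Rab8b (0.92), Rhog and Irak2 (both 0.91), and to Tnfaip3 Rab8b (0.89), Tes (0.88) and Nabp1 (0.86). Nfkbia was closest to Mir22hg (0.89), Casp4 (0.88) and Cdc42ep2 (0.87), and Nfkbiz to Fas (0.88), Ndel1 (0.86) and Ets2 (0.85). Icam1 was closest to Clec1a (0.83), Cdc42ep2 (0.77) and Tmem88 (0.74), and Vcam1 to Gja1 (0.85), Pam and Wls (both 0.84). Birc3 was closest to Il10ra (0.91), Rel (0.89) and Cyth1 (0.88), and Relb to Bcl2a1d and Nfkb2 (both 0.73) and Mir155hg (0.71).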

How the data were processed

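The deposited files hold raw counts: per the labels, UMI counts per gene and barcode from 10x Genomics libraries, made by the authors on GRCm38 with Cell Ranger, whose version in the file headers is 4.0.0, with Seurat named in the submitters' processing notes. Members and gene lists were chosen with earlier results of these data known, and so were the named genes: the 10 members, the pathway genes with the 2 highest and 2 lowest ratios in a comparison, and for each member the 3 genes of most similar pattern. Whether each matrix pools several mice is not given in the sources used here.

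Barcodes needed at least 200 genes and at most 20% mitochondrial UMIs (371 and 464 removed in MGJ, 70 and 133 in MGJ2). Scrublet in scanpy 1.11.5 then removed 140 (1.04%) and 222 (2.84%) doublet calls, against 10.8% and 6.24% expected from the loading, so doublets remain. Both libraries were clustered together without members or pathway genes (2000 variable genes, 30 components, 15 neighbours, Leiden resolution 1.0; leidenalg 0.10.2, igraph 0.11.9), giving 37 clusters, named from 27 marker lists. Chondrocyte-like cells were sub-clustered at resolution 0.5, and sub-clusters led by other classes were set aside.

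Levels are summed UMIs of a set divided by all of its UMIs, times 1000000 (CPM), with exact Poisson intervals; ratios have exact conditional binomial intervals and shares exact Clopper-Pearson intervals (95%). A side with no UMI was set to 3 counts. The ratio step was tested on simulated data. Positions come from the annotation that matched 99.85% of identifiers, GENCODE M21. Tools were Python 3.11.15, numpy 2.4.6, scipy 1.17.1, pandas 2.3.3, scikit-learn 1.9.0 and matplotlib 3.10.9. There were 11 alternative settings, and 6 more were chosen after seeing the data.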

Additional observations from a re-analysis of the deposited data

Results flagged for a closer look

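The barcodes left out for few genes, high mitochondrial share or a doublet call also carried UMIs of the 10 genes, above the level that a count of 0 allows. In MGJ the 975 removed barcodes had 1573 CPM (exact Poisson 95% interval 1533 to 1614) for the 10 genes summed, beside 2032 CPM in kept cells and a floor of 0.811 CPM. In MGJ2 the 425 removed barcodes had 3211 CPM (3147 to 3275), beside 2639 CPM in kept cells and a floor of 0.993 CPM. Which cells these barcodes held was not tested.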

How the results depend on the processing

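Of 137 recomputed counts of genes past 2-fold, 121 stayed within 1.5 times the first value and 16 moved; of 1356 recomputed ratios 954 stayed within the counting interval of the first value, 392 moved outside it and 10 called ones changed direction. Neutrophil-like over monocyte- and macrophage-like cells, 2 genes in MGJ, gave 4 with at most 10% mitochondrial UMIs, 4 with at least 500 genes, 5 with low-UMI clusters named and 4 without the Ifit1-led cluster, and Tnf turned to 0.765 with doublet calls kept, 0.632 with the 10% limit, 0.504 with 500 genes and 0.650 without that cluster. In MGJ2, 3 genes, it gave 1 with the 10% limit and 1 with members allowed in clustering. Hypertrophic-like over other chondrocyte-like cells, 1 gene in MGJ, gave 0 with the 10% limit, with 500 genes, at resolutions 0.5 and 2 and with set-aside sub-clusters kept, and Vcam1 turned to 0.684 with the 10% limit and 0.553 at resolution 0.5. In MGJ2, 5 genes, it gave 3 at resolution 2 and 2 with set-aside sub-clusters kept, and Icam1 turned to 0.773 when every cell counted equally. Naming cells one by one from marker scores gave 1 gene in MGJ (from 5) and 1 in MGJ2 (from 4) for dendritic-like cells, turned Tnf to 1.01 in MGJ, and gave no hypertrophic-like set. Counting every cell equally gave 5 genes (from 10) for endothelial-like cells of MGJ2 and turned Tnf to 0.429 and Tnfrsf1b to 0.568. The cause of these shifts was not tested. Thinning to 1000 UMIs left 6 of 8 genes higher with Tnf in neutrophil-like cells of MGJ, 5 of 8 in MGJ2 and 1 of 8 within the Ccl3-led and the Gm39321-led cluster, and 5 of 8 were higher within the Ifit1-led cluster, which was run at that depth only. Without marrow stromal-like cells the counts stayed at 4 and 9 for stromal and at 4 and 10 for endothelial-like cells. No paired analysis was possible because the labels give the 2 libraries no group. Sets of 50 to 132 cells limit endothelial-like and chondrocyte-like values in MGJ2.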
